A study of Mus musculus with 4 samples.

Results

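The 10 genes described here are plasma membrane amino acid transporters grouped around SLC7A5, together with SLC3A2, the heavy chain that several of them need. They were found as the rows of the deposited expression table whose symbol equals one of 10 names, and all 10 were present among 23258 genes. The group was drawn up with the lower level of SLC7A5 in the KO libraries already known. The KO and WT values of the 10 genes are therefore given as a description, with no test of their own, and each count of calls among them stands beside the share of all genes called.

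The series compared gastric tumours of C57BL/6 mice at postnatal week 20. There were 2 libraries from wild-type mice (WT) and 2 from Mst4F/F UBCcre mice (KO), in which a ubiquitin C promoter drives the Cre recombinase that removes floxed Mst4. Mice of both sexes were used, and the labels give neither the sex behind a library, nor the way the tumours arose, nor whether the WT mice carried Cre or a floxed allele. Nothing in the labels ties a library to an animal of its own, so p-values reflect the spread of these 4 libraries, and that spread may be technical.

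All 23258 row identifiers carry the human taxon number and human symbols, although the labels give mouse. Genes are named here by those symbols, and WT and KO refer to labels only. Library totals ranged from 18613533 to 30505281 estimated counts, and WT replicate 1 was the deepest and stood apart from the other libraries. The WT libraries were over 2-fold apart for 20.6% of 16030 genes, against 1.63% for the KO libraries. The targeted gene, STK26, was at 54.2 and 54.9 CPM (counts scaled to a common library total) in WT against 9.04 and 7.36 CPM in KO. The difference was smaller on the FPKM scale, at 17.23 and 17.24 FPKM in WT against 5.22 and 5.75 FPKM in KO. Of 10 epithelial markers, 7 were at 1 FPKM or more in every library, with KRT8 at 241, 885, 609.6 and 721 FPKM in the order WT 1, WT 2, KO 1, KO 2, and CDH1 at no more than 0.09 FPKM. The labelled tissue was hardly visible in its own markers. Of 9 gastric gland markers found in the table, 7 stayed below 1 FPKM in every library, and the list summed to between 6.9 and 12.2 FPKM. In tissue libraries, fewer cells of a type and less RNA per cell cannot be told apart.

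Cells take up amino acids through families of membrane carriers with overlapping substrates. SLC7A5 (LAT1) exchanges large neutral amino acids such as leucine across the membrane, and it reaches the cell surface as a disulphide-linked pair with the glycoprotein SLC3A2 (CD98 heavy chain, 4F2hc). Leucine imported in this way is sensed by the kinase complex mTORC1, which promotes protein synthesis, and many tumours carry high LAT1. The same heavy chain also pairs with SLC7A11, which brings in cystine in exchange for glutamate, and with SLC7A6, which exchanges cationic for neutral amino acids. The remaining members work without it. SLC1A5 and SLC1A4 are sodium-dependent exchangers of small neutral amino acids, SLC38A1 and SLC38A2 load cells with glutamine and alanine, SLC7A1 carries arginine and lysine, and SLC43A1 (LAT3) lets branched-chain amino acids through without exchange.

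Both chains of the LAT1 heterodimer were lower in the KO libraries, and none of the other 8 members differed as far in both comparisons of KO with a single WT library. SLC7A5 was at 2769 and 1823 CPM in WT (mean 2296 ± 669, SD, n = 2). It was at 507 and 597 CPM in KO (552 ± 63.8, SD, n = 2). On the log2 CPM scale the lower WT library lay 1.73 above the KO mean, and the KO libraries were 0.24 apart. KO was lower by a log2 fold change of -2.06 (SE 0.30), or 4.16-fold. SLC3A2 was at 1094 and 724 CPM in WT (909 ± 261, SD, n = 2) and at 295 and 325 CPM in KO (310.3 ± 21.3, SD, n = 2). Here too each KO library lay below both WT libraries, with a log2 fold change of -1.55 (SE 0.29), or 2.93-fold. WT replicate 1 was the highest library for both chains, 1.52-fold above WT replicate 2 for SLC7A5 and 1.51-fold for SLC3A2. Without it the log2 fold changes were -1.72 (SE 0.13) and -1.22 (SE 0.13), and without WT replicate 2 they were -2.30 (SE 0.14) and -1.79 (SE 0.14).

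The edgeR quasi-likelihood test on all 4 libraries called 0 of the 10 members at an adjusted p under 0.05, as it called 0.0% of 16030 genes, and 2 members, SLC7A5 and SLC3A2, were lower at an unadjusted p under 0.05, where 3.22% of genes were. DESeq2 called the same 2 members lower, where it called 0.212% of genes lower and 0.0374% higher. Without WT replicate 1 edgeR again called these 2 lower and 0 higher, where it called 3.93% of genes lower and 2.54% higher. Without WT replicate 2 it called 5 members lower and 2 higher, where 26.1% of genes were lower and 25.2% higher. Both of these 3-library fits draw their error from the KO libraries and leave out the distance between the WT libraries. These counts restate the contrast that led to the choice of the genes.

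**Figure D1:**
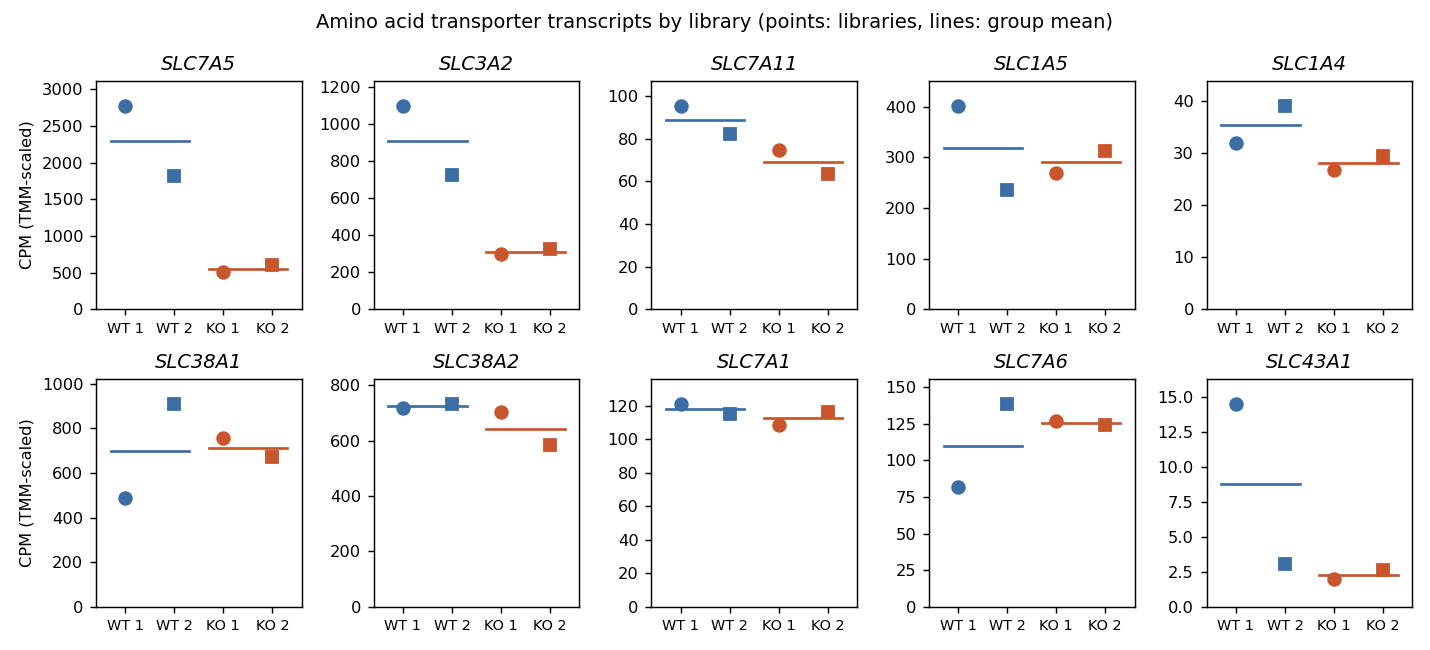
CPM of the 10 transporter genes (vertical axes, each from 0) in the 4 libraries (horizontal axes). Circles are replicate 1, squares replicate 2, blue WT and orange KO, and lines are the group means of 2 libraries. SLC7A5 and SLC3A2 lie far lower in both KO libraries, SLC43A1 is high in WT replicate 1 alone, and SLC38A1 and SLC7A6 are lowest in that library.

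Levels of different genes were compared on the length-scaled FPKM values. SLC7A5 was at 549 and 368 FPKM in WT and at 105 and 123 FPKM in KO. SLC3A2 was at 475 and 310.4 FPKM in WT and at 132 and 146 FPKM in KO. The light chain transcript was thus above the heavy chain in both WT libraries and below it in both KO libraries. The ratio of SLC7A5 to SLC3A2 FPKM was 1.16 and 1.19 in WT (1.17 ± 0.022, SD, n = 2) and 0.797 and 0.844 in KO (0.821 ± 0.033, SD, n = 2). The WT ratio was 1.43 times the KO ratio, and 1.42 times when the ratio was taken from CPM. The WT libraries were close in this ratio, although each chain was higher in WT replicate 1 than in WT replicate 2. No test was run on it, since 2 libraries against 2 cannot give a two-sided exact permutation p below 0.333.

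The light chains that share SLC3A2 were dominated by SLC7A5 in every library. The table held 5 of the 6 light chains listed, SLC7A5, SLC7A6, SLC7A7, SLC7A8 and SLC7A11. SLC7A5 made up 96.3% and 92.5% of their summed FPKM in WT and 79.2% and 82.3% in KO. SLC7A6 made up 1.89% and 4.92% in WT and 13.6% and 12.2% in KO. SLC7A11 made up 1.56% and 2.35% in WT and 6.07% and 4.40% in KO. These larger shares came with little difference in the other chains themselves, whose summed level was 21.1 and 29.7 FPKM in WT and 27.6 and 26.4 FPKM in KO. All 5 light chains together stood at 1.20 and 1.28 times the heavy chain FPKM in WT and at 1.01 and 1.02 times in KO.

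**Figure D2:**
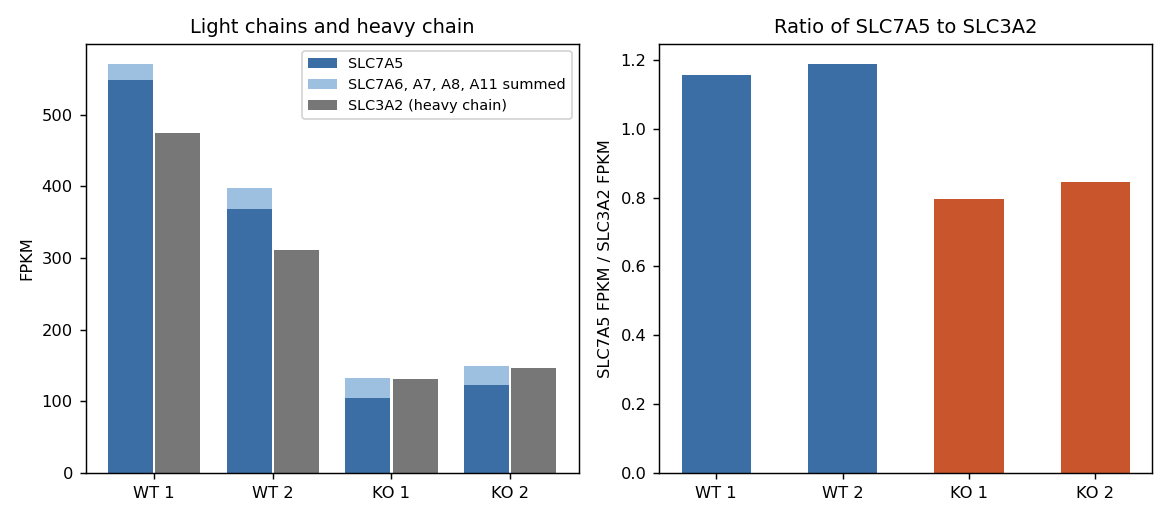
Left, FPKM of SLC7A5 (dark blue) with the summed FPKM of SLC7A6, SLC7A7, SLC7A8 and SLC7A11 stacked on it (light blue), beside SLC3A2 (grey), in each library. Right, the ratio of SLC7A5 to SLC3A2 FPKM per library, which is 1.16 and 1.19 in WT (blue) and 0.797 and 0.844 in KO (orange).

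The other light chains in the group, SLC7A11 and SLC7A6, had smaller log2 fold changes than SLC7A5. SLC7A11, the cystine transporter, was at 95.2 and 82.1 CPM in WT against 74.8 and 63.45 CPM in KO. The groups did not overlap, but the log2 fold change of -0.36 (SE 0.23) was small beside that of either LAT1 chain. It was -0.25 (SE 0.16) without WT replicate 1 and -0.44 (SE 0.16) without WT replicate 2. SLC7A6 was at 81.9 and 138 CPM in WT against 127 and 124 CPM in KO, so that the KO libraries lay between the WT libraries. The fold change on the log2 scale was 0.19 (SE 0.32), -0.14 (SE 0.15) without WT replicate 1 and 0.64 (SE 0.16) without WT replicate 2.

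The 4 carriers of glutamine and small neutral amino acids had log2 fold changes between -0.34 and 0.03 with all libraries. SLC1A5 (ASCT2), an exchanger often described beside LAT1 as a source of intracellular glutamine, was at 401 and 236 CPM in WT against 268 and 312 CPM in KO. The KO libraries lay between the WT libraries. Its log2 fold change of -0.13 (SE 0.32) became 0.30 (SE 0.14) without WT replicate 1 and -0.44 (SE 0.14) without WT replicate 2, so its direction depended on the WT library used. On the FPKM scale SLC7A5 was 4.07 and 4.36 times as high as SLC1A5 in WT and 1.08 and 1.09 times as high in KO.

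SLC1A4 (ASCT1), which exchanges alanine, serine, cysteine and threonine, was at 31.9 and 39.0 CPM in WT against 26.7 and 29.4 CPM in KO. Both KO libraries were below both WT libraries, with a log2 fold change of -0.34 (SE 0.24) in all libraries, -0.47 (SE 0.17) without WT replicate 1 and -0.16 (SE 0.17) without WT replicate 2. SLC38A1 (SNAT1) was at 490 and 909 CPM in WT against 755 and 671 CPM in KO. Its KO libraries also lay between the WT libraries. KO minus WT on the log2 scale was 0.03 (SE 0.35) in all libraries, -0.35 (SE 0.13) without WT replicate 1 and 0.57 (SE 0.15) without WT replicate 2.

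SLC38A2 (SNAT2), a carrier that is induced when amino acids run short, was at 719 and 732.5 CPM in WT against 703 and 584 CPM in KO, with a log2 fold change of -0.17 (SE 0.23). Its groups did not overlap in CPM, but they did on the FPKM scale, with 119 and 128 FPKM in WT and 127 and 106 FPKM in KO. SLC7A1 (CAT1), the arginine and lysine carrier, was the most even member, at 121 and 115 CPM in WT against 108 and 116 CPM in KO. Its groups overlapped, and the log2 fold change was -0.07 (SE 0.21).

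SLC43A1 (LAT3), another leucine carrier of the group, was high in a single library. It was at 14.5 CPM in WT replicate 1, 3.03 CPM in WT replicate 2, 1.97 CPM in KO replicate 1 and 2.61 CPM in KO replicate 2. The counts behind these values were 426, 56.1, 37.6 and 49.95. WT replicate 1 was thus 4.77-fold above WT replicate 2, and the other 3 libraries were close together. The log2 fold change was -1.93 (SE 0.79) in all libraries, -0.39 (SE 0.39) without WT replicate 1 and -2.63 (SE 0.25) without WT replicate 2. It was the only member whose WT libraries were over 2-fold apart.

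**Figure D3:**
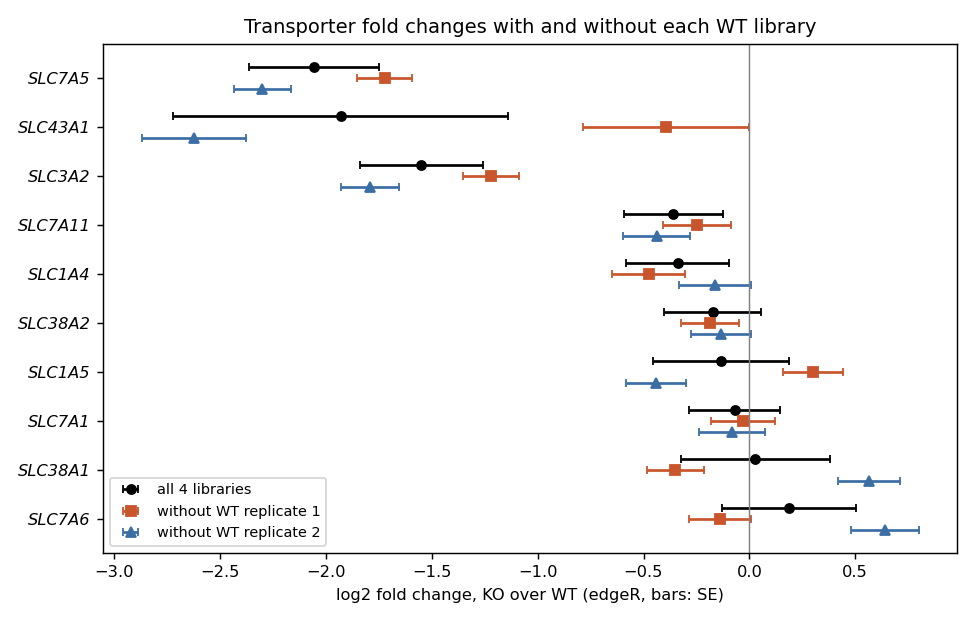
Log2 fold change of KO over WT (horizontal axis, bars are the SE) for each transporter gene, fitted by edgeR on all 4 libraries (black circles), without WT replicate 1 (orange squares) and without WT replicate 2 (blue triangles). SLC7A5 and SLC3A2 stay below -1 in all 3 fits, SLC43A1 moves from -2.63 to -0.39, and SLC1A5, SLC38A1 and SLC7A6 change sign between the fits without a WT library.

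Across the group, 8 members had a negative log2 fold change and 2 a positive one, with a median of -0.26, against 51.4% of all genes negative and a median of -0.01. Both KO libraries were below both WT libraries for 6 members in CPM, where 19.1% of all genes were, and above them for 0 members, where 18.4% of all genes were. On the FPKM scale 5 members were below, where 14.9% of all genes were, and 0 above, where 22.2% were. A log2 fold change of -1 or lower was seen for 3 members with all libraries, against 6.82% of genes, and for 2 without WT replicate 1, against 2.48% of genes. As the group was chosen on this contrast, these shares describe it and no more.

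Summed over the 10 genes, the level was 1390.0 and 1065 FPKM in WT and 615 and 625 FPKM in KO. Nearly all of that difference lay in the LAT1 pair. Without SLC7A5 and SLC3A2 the other 8 members summed to 366 and 386 FPKM in WT and 379 and 356 FPKM in KO, so the groups overlapped. The pair made up 73.7% and 63.8% of the summed level in WT and 38.4% and 43.0% in KO.

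The order of levels changed with the pair. Among all genes of the table SLC7A5 ranked 115 and 180 by FPKM in WT and 690 and 571 in KO, and SLC3A2 ranked 137 and 206 in WT and 510 and 474 in KO. In WT the mean FPKM fell in the order SLC7A5 (459 ± 128, SD, n = 2), SLC3A2 (393 ± 116), SLC38A2 (123 ± 6.25), SLC1A5 (110 ± 35.6) and SLC38A1 (93.5 ± 38.8). In KO the same 5 genes lay closer, with SLC3A2 at 139 ± 10.0 (SD, n = 2), SLC38A2 at 116 ± 14.96, SLC7A5 at 114 ± 12.8, SLC1A5 at 105 ± 10.9 and SLC38A1 at 99.2 ± 12.4. In both genotypes the means of SLC3A2 and SLC38A2 were further apart than either SD, and the other neighbours among these 5 genes differed by less than the larger of their SDs. SLC7A6, SLC7A1, SLC7A11 and SLC1A4 followed, between 6.04 and 19.6 FPKM in every library. SLC43A1 was the lowest member, at 4.85, 0.92, 0.54 and 0.77 FPKM.

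A further 41 transporters of the SLC7, SLC3, SLC1, SLC38, SLC43, SLC6, SLC36 and SLC16 families were listed for comparison, nearly all of them carriers of amino acids. The table held 36 of them. Of these, 19 stayed below 1 FPKM in every library, 16 reached it in every library, and 22 were high enough to be tested. By mean FPKM, the 5 highest transporter transcripts of either genotype were all members. The edgeR test called 0 of the 22 in either direction (0 at an unadjusted p under 0.05), DESeq2 called 0, and 13 had a negative and 9 a positive log2 fold change, with a median of -0.17. Both KO libraries were below both WT libraries in CPM for 1 of the 22, SLC38A3, where 19.1% of all genes were, and above for 2, SLC7A8 and SLC1A2, where 18.4% were. On the FPKM scale SLC38A3 overlapped, at 3.62 and 1.26 FPKM in WT against 1.15 and 1.33 FPKM in KO. Both KO libraries were below both WT libraries on that scale for 2 of the 22, where 14.9% of all genes were. They were above for 2, where 22.2% were.

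The 4 with the smallest p were SLC38A3, SLC6A6, SLC6A15 and SLC7A8, each with an adjusted p of 0.834 in edgeR. SLC38A3 (SNAT3), a glutamine carrier, was at 10.5 and 3.86 CPM in WT against 3.16 and 3.81 CPM in KO. SLC6A6, the taurine transporter, was at 380 and 101 CPM in WT against 125 and 109 CPM in KO. For both genes WT replicate 1 was high and the other WT library was close to KO. On the log2 scale KO minus WT was -1.04 (SE 0.57) and -1.04 (SE 0.63), and without WT replicate 1 they were -0.14 and 0.22. SLC6A15, a carrier of branched-chain amino acids and proline, had a log2 fold change of -0.53 (SE 0.35), and -0.05 without that library. SLC7A8 (LAT2), the closest relative of SLC7A5 in substrate range and a partner of the same heavy chain, was at 2.56 and 1.24 CPM in WT against 3.14 and 2.98 CPM in KO. KO was higher by 0.68 (SE 0.50) on the log2 scale, and by 1.30 (SE 0.44) without WT replicate 1 but by 0.29 (SE 0.375) without WT replicate 2. SLC43A3, a nucleobase carrier of the SLC43 family, was lower by 0.51 (SE 0.15) on the log2 scale without WT replicate 1. SLC43A3 was at 84.0 and 145 CPM in WT against 99.9 and 103 CPM in KO, so the KO libraries lay between the WT libraries. Its log2 fold change was -0.18 with all libraries and 0.30 (SE 0.16) without WT replicate 2. In that last fit 13 of 25 transporters had a negative log2 fold change and 12 a positive one, where 49.9% of all genes were negative.

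**Figure D4:**
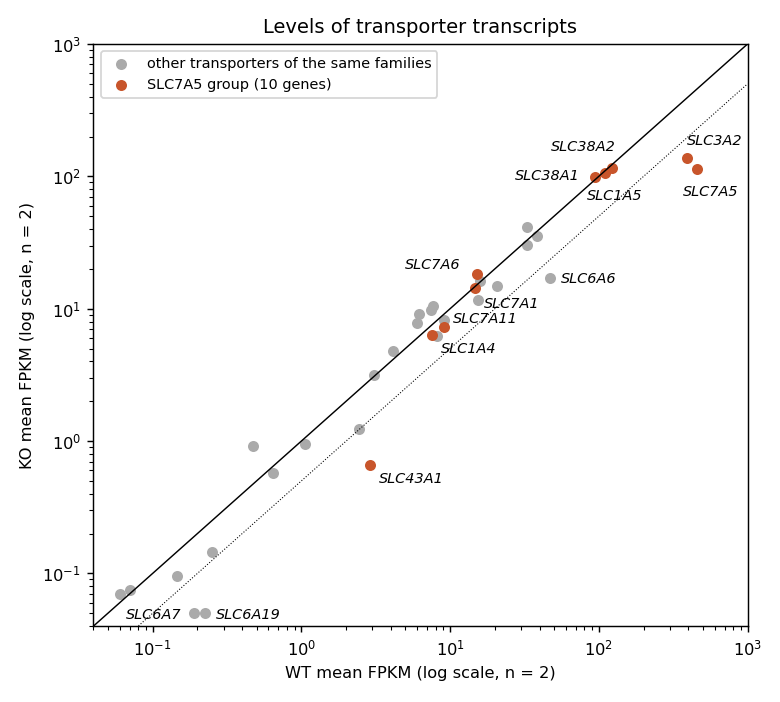
Mean FPKM in KO (vertical, log scale) against mean FPKM in WT (horizontal, log scale) for the 35 listed transporters with a mean of at least 0.05 FPKM in both genotypes, each mean over 2 libraries. The solid line marks equal levels and the dotted line a 2-fold lower level in KO. SLC7A5 and SLC3A2 lie at the top right below the dotted line, SLC43A1 lies below it at a low level, and of the other transporters SLC6A6 (46.8 FPKM in WT and 17.2 in KO), SLC6A19 and SLC6A7 lie below it too, so that 6 of the 35 do.

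The heavy chain has other partners at the membrane, for which no difference passed with all 4 libraries. SLC3A2 binds the integrin beta 1 chain ITGB1, and the glycoprotein basigin (BSG), a chaperone of lactate carriers, is found in complexes with it. ITGB1 was at 136 and 93.7 CPM in WT against 88.5 and 67.9 CPM in KO. BSG was at 2171 and 908 CPM in WT against 758 and 890.1 CPM in KO. KO minus WT on the log2 scale was -0.56 (SE 0.30) and -0.90 (SE 0.45), each with an edgeR adjusted p of 0.834. Without WT replicate 1 they were -0.26 (SE 0.16) and -0.14 (SE 0.135), so most of the difference in BSG lay in that library. Without WT replicate 2 the values were -0.77 and -1.37.

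Of 5 transcription factors known to act on these transporter genes or on oxygen-regulated genes, none passed at the transcript level in all 4 libraries. The protein and activity of these factors were not measured. ATF4, which induces SLC7A5, SLC3A2 and SLC7A11 under amino acid shortage, was at 324 and 238 CPM in WT against 265 and 273 CPM in KO. MYC, which acts on SLC7A5 and SLC1A5, was at 250.0 and 125 CPM in WT against 166 and 178 CPM in KO. For both genes the KO libraries lay between the WT libraries, and the log2 fold changes were -0.06 (SE 0.25) and -0.13 (SE 0.38). NFE2L2, an activator of SLC7A11, differed by -0.06 (SE 0.34) on the log2 scale. HIF1A and EPAS1, the oxygen-regulated factors, had -0.23 (SE 0.24) and -0.52 (SE 0.31). EPAS1 was at 372 and 223 CPM in WT against 200 and 216 CPM in KO. Both KO libraries were thus below both WT libraries, where 19.1% of all genes were, and the groups overlapped for the other factors named. Without WT replicate 1 the log2 fold change of EPAS1 was -0.10 (SE 0.14). In edgeR 0 of these 5 genes were called, with adjusted p between 0.834 and 0.967, and 0 had an unadjusted p under 0.05. The direction of MYC depended on the WT library used. MYC was higher in KO by 0.46 (SE 0.15) on the log2 scale without WT replicate 1 and lower, at -0.52 (SE 0.14), without WT replicate 2. NFE2L2 was at -0.43 (SE 0.15) without WT replicate 1 and at 0.46 (SE 0.16) without WT replicate 2. In the latter fit HIF1A, EPAS1 and ATF4 were at -0.37 (SE 0.14), -0.81 (SE 0.14) and -0.24 (SE 0.14).

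Genes that sense imported amino acids for mTORC1 split evenly by direction. Of 31 listed, 30 were tested, with 15 positive and 15 negative log2 fold changes and a median of 0.02. The edgeR test called 0, with 1 gene at an unadjusted p under 0.05, and DESeq2 called 0. CASTOR1, an arginine sensor, was at 8.16 and 3.43 CPM in WT against 1.45 and 1.30 CPM in KO, which is -2.06 (SE 0.56) on the log2 scale. RRAGC, a Rag GTPase that brings mTORC1 to the lysosome, was at 24.4 and 37.8 CPM in WT against 18.6 and 19.5 CPM in KO, which is -0.71 (SE 0.30) on the log2 scale. Neither passed in all 4 libraries. Without WT replicate 1 they were lower by 1.29 (SE 0.43) and 0.99 (SE 0.17) on the log2 scale. The leucine sensor SESN2 had a log2 fold change of -0.58 (SE 0.30) and LAMTOR1, a subunit of the lysosomal anchor of the Rag GTPases, 0.72 (SE 0.39). Without WT replicate 1 they were -0.245 (SE 0.18) and 0.29 (SE 0.17), and without WT replicate 2 -0.82 (SE 0.17) and 1.35 (SE 0.18). Without WT replicate 2 the 31 genes split into 16 positive and 15 negative, where 49.9% of all genes were negative. The sizes were less even than the signs, with a median log2 fold change of 0.246 for the list against 0.003 for all genes. RRAGC was at -0.34 (SE 0.17) in that fit.

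Among 10 genes of cysteine and glutathione metabolism, into which the cystine carried by SLC7A11 feeds, 5 had positive and 5 negative log2 fold changes, with a median of 0.06. In edgeR 0 were called and 2 had an unadjusted p under 0.05. DESeq2 called 0. These 2 were CBS and CTH, the enzymes that make cysteine from homocysteine. CBS was at 50.5 and 7.68 CPM in WT against 4.40 and 3.95 CPM in KO. CTH was at 118 and 20.3 CPM in WT against 12.1 and 10.9 CPM in KO. Most of the distance lay between the WT libraries. Both were also lower without WT replicate 1, CBS by 0.87 (SE 0.28) and CTH by 0.82 (SE 0.19) on the log2 scale. GSR, which reduces oxidised glutathione, and GCLM, a subunit of the enzyme that starts glutathione synthesis, differed by 0.50 (SE 0.28) and 0.43 (SE 0.34) on the log2 scale. Without WT replicate 1 they differed by 0.25 (SE 0.16) and 0.07 (SE 0.17), and without WT replicate 2 by 0.84 (SE 0.17) and 0.93 (SE 0.17). Without WT replicate 2 the 10 genes again split into 5 positive and 5 negative log2 fold changes.

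Of 9 genes that use or make glutamine and glutamate, 7 had a negative log2 fold change, with a median of -0.61. In edgeR 0 were called and 1 had an unadjusted p under 0.05. ASNS, which makes asparagine from aspartate with glutamine, was at 104 and 28.1 CPM in WT against 13.9 and 9.54 CPM in KO, and DESeq2 called it lower (adjusted p = 0.0221). On the log2 scale KO differed by -2.50 (SE 0.68), or by -1.26 (SE 0.18) without WT replicate 1. GLUD1, GPT2 and PSAT1, which interconvert glutamate and 2-oxoglutarate in different reactions, had log2 fold changes of -0.61 (SE 0.25), -1.39 (SE 0.56) and -0.53 (SE 0.24) and did not pass. GPT2 was at 58.6 and 20.1 CPM in WT against 12.5 and 17.6 CPM in KO, and without WT replicate 1 its log2 fold change was -0.41 (SE 0.19). Of 10 genes of branched-chain amino acid breakdown, 5 had a positive and 5 a negative log2 fold change, with a median of 0.04. For that list edgeR called 0, with 0 at an unadjusted p under 0.05, and DESeq2 also called 0. MCCC2, a subunit of an enzyme of leucine breakdown, was at 69.4 and 86.9 CPM in WT against 108 and 102 CPM in KO, which is 0.43 (SE 0.24) on the log2 scale. BCKDHA, BCKDHB and BCKDK, 2 subunits and the kinase of the branched-chain ketoacid dehydrogenase, had log2 fold changes of -1.13 (SE 0.70), -0.38 (SE 0.25) and -0.72 (SE 0.51). WT replicate 1 was high for BCKDHA, at 120 CPM against 26.8 CPM in WT replicate 2, and for BCKDK, at 129 against 46.9 CPM. Without it both changed sign, to 0.33 (SE 0.18) and 0.19 (SE 0.17). Without WT replicate 2 the 10 genes of branched-chain amino acid breakdown again split into 5 positive and 5 negative. Of the 9 glutamine and glutamate genes 7 were negative in that fit, where 49.9% of all genes were.

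The genes whose pattern over the 4 libraries was most like that of SLC7A5 were found by the Euclidean distance between mean-centred log2(CPM + 0.5) values, among 11559 genes whose mean CPM reached 5. The nearest 5 were NID1, SPOCK1, GIPC3, MMP15 and NID2, at distances of 0.36 to 0.51. NID1, a nidogen of basement membranes, was at 133 and 86.0 CPM in WT against 31.9 and 33.2 CPM in KO. MMP15, a membrane-bound matrix protease, was at 120 and 49.7 CPM in WT against 17.5 and 19.6 CPM in KO. GIPC3, a PDZ domain protein, was at 21.7 and 13.2 CPM in WT against 4.87 and 5.39 CPM in KO. SLC3A2 ranked 6 in this order, at a distance of 0.51, and SLC43A1 ranked 280. The other 7 members ranked between 2215 and 8877. The distance was taken over the same 4 libraries in which SLC7A5 was already known to be lower in KO. Genes lower in KO therefore lie near it by construction, and the ranks are a description only. Without WT replicate 1, only NID2 of the 5 nearest remained among them, and SLC3A2 ranked 17. Of the 45 pairs of members, the closest was SLC38A1 with SLC7A6, at a distance of 0.20, both lowest in WT replicate 1.

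Summed marker levels of other cell types differed between the libraries beside these values, but rested on few genes. Of the markers found, 5 of 10 fibroblast, 6 of 8 endothelial and 8 of 10 immune markers stayed below 1 FPKM in every library. Only 3, 1 and 1 of them reached 1 FPKM in every library. Fibroblast markers, with 10 of 10 found, summed to 37.4 FPKM in WT replicate 1 and to 24.0, 21.6 and 24.1 FPKM in WT replicate 2 and the KO libraries, with POSTN at 0 in 3 libraries. Endothelial markers, 8 of 8 found, summed to 28.7 to 41.5 FPKM, nearly all of it ENG. Immune markers, 10 of 12 found, summed to 10.03 to 21.4 FPKM, and the leukocyte marker PTPRC did not exceed 0.09 FPKM. Epithelial markers summed to 1019 FPKM in WT replicate 1 and to 1733, 1307 and 1508 FPKM in the other libraries, so the WT libraries lay on either side of KO. Their part in the transporter differences was not tested.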

How the data were processed

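RNA sequencing of 4 libraries was used, 2 WT and 2 KO, grouped by the labels. The deposited table gives, per gene and library, an estimated count, which is not whole for most genes (18.8% to 23.7% lie within 0.005 of a whole number), and a second value that its header does not name. It was taken to be FPKM, since its deposited library sums (441772 to 452971) are unequal. HISAT2, Cufflinks, RSEM and the build GRCm38.p5 are named per the submitters' processing notes; no role, annotation or strand setting is stated there. Without strand, reads of overlapping antisense genes cannot be told apart. Coordinates and sequences of human genes were not used here.

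Estimated counts were rounded, filtered with filterByExpr (16030 genes), scaled by TMM and tested with the robust quasi-likelihood test of edgeR 4.0.16 (R 4.3.3). Genotype was the single factor. P-values were adjusted by Benjamini-Hochberg over all genes tested, with a threshold of 0.05. The SE was derived from the fold change and its F statistic (the log2 value's size over the root of F). CPM uses the TMM-scaled totals of the genes tested. The tests were tried first on simulated counts, with the spread between libraries taken from the KO libraries only. The wider spread between the WT libraries was therefore not part of that trial. DESeq2 1.42.0, limma 3.58.1 (voom, and trend on log2(FPKM + 1)), other scalings and filters, each library left out and a replicate block were alternatives. A fit without a library leaves 1 library in that genotype. For named genes other than the members, only log2 fold changes and SEs are given from such fits, whether or not the gene was called there. Python 3.11.15 was used for ratios and figures.

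The members and all lists were chosen with earlier results of these data known. The named genes are all members, STK26, the listed regulators and heavy chain partners, up to 4 genes of each other list by smallest p, the 5 genes nearest to SLC7A5, and the highest and lowest epithelial marker. Genes called without WT replicate 1, SLC1A2, SLC6A7, SLC6A19 and the other cell type markers named were added after their values were seen. A further listed regulator is not reported here.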

Additional observations from a re-analysis of the deposited data

How the results depend on the processing

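The log2 fold changes of SLC7A5 and SLC3A2 kept their sign under all 13 alternatives, between -2.30 and -1.72 and between -1.79 and -1.22. Those of SLC7A11, SLC1A4, SLC38A2 and SLC7A1 also kept theirs, as did SLC43A1 under the 12 that tested it. SLC1A5 (-0.44 to 0.30), SLC38A1 (-0.35 to 0.57) and SLC7A6 (-0.14 to 0.64) changed sign, SLC1A5 and SLC7A6 without WT replicate 1 and SLC38A1 without that library or KO replicate 1. The number of genes called was 0 in edgeR, 40 in DESeq2, and 0 to 8702 with 1 library left out, being 0 without either KO library, 1065 without WT replicate 1 and 8702 without WT replicate 2. With a library left out, calls ranged from 0 to 7 among the members, from 0 to 15 among the other transporters, from 0 to 14 among the mTORC1 sensing genes, from 0 to 9 among the cystine and glutathione genes, from 0 to 6 among the glutamine genes from 0 to 8 among the genes of branched-chain breakdown and, in counts added after the others were seen, from 0 to 4 among the regulators and from 0 to 2 among the heavy chain partners. All highest values came without WT replicate 2, where 26.1% of 16975 genes were called lower and 25.2% higher. DESeq2 called 2 members and 1 glutamine gene, where it called 0.212% of all genes lower and 0.0374% higher. The other scalings and filters, limma-voom and limma-trend called 0 genes. Leaving 1 out makes the other library of its genotype borrow the spread of the opposite genotype. With the replicate number as a block, 10 genes and 0 members were called; the labels give only a shared number, and same-numbered libraries deviated in opposite directions (correlation across genes -0.137). Crossing the numbers in that block, chosen after seeing this, called 4 genes and 0 members. A pseudocount of 2 kept 4 of the 5 genes nearest to SLC7A5, with SLC3A2 as the fifth. The cause of these shifts was not tested. Among the members depth limits SLC43A1 most, at 37.6 to 56.1 counts in 3 libraries; other genes named had fewer, among them SLC1A2 (22.1 to 24.8 counts), CASTOR1 in KO (24.9 and 27.6) and SLC7A8 in WT replicate 2 (23.0).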

Other observations

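The 2 deposited scales imply a transcript length for each gene and library, as the estimated count divided by FPKM and by the library total. For SLC7A5 this length was between 4866 and 4968 bases and for SLC3A2 between 2222 and 2300 bases, so both scales gave the same picture of the pair. It was between 8618 and 10315 bases for SLC7A11 and between 2879 and 3744 bases for SLC43A1. For the targeted gene, STK26, it was 3032 and 3132 bases in WT and 1776 and 1311 bases in KO.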
